A study of Mus musculus with 50 samples.

Results

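The TAM family comprises the receptor tyrosine kinases Tyro3, Axl and Mertk and their bridging ligands Gas6 and Pros1 (protein S). These 5 genes were found by their symbols among the 53700 genes of the count tables of hippocampal microglia, 2 of them ligands and 3 receptors. All 5 passed the filter on low counts, which asked for at least 1 CPM of the library total in more than 2 of the mice and kept 16696 genes. Tyro3 passed it through 3 P9-CTR mice and 1 P9-ELS mouse alone. The CPM values below are counts scaled by the library total after TMM adjustment. The members were described in all 50 mice.

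Microglia, the resident macrophages of the brain, were sorted by flow cytometry as CD45int CD11b+ cells from the hippocampus of male C57BL/6J mice, and each mouse gave 1 library of polyadenylated RNA. The pups were reared under early-life stress (ELS), with limited bedding and nesting material from postnatal day (P) 2 to P9, or under control conditions (CTR). They were taken at P9 without injection, or at P200 within hours of an injection of PBS or of 1 mg/kg of the bacterial cell wall component lipopolysaccharide (LPS). At P9 there were 12 CTR and 13 ELS mice. At P200, 7 CTR and 6 ELS mice had received PBS (CTR-PBS and ELS-PBS), and 7 CTR and 5 ELS mice LPS (CTR-LPS and ELS-LPS). No genetic change is given for any group. The labels give each mouse a number that was read as its nest, and a group held mice of 4 or 5 nests. The numbers of P9 and P200 were read as separate nests, since number 17 stands for CTR mice at P9 and for ELS mice at P200. So read, every nest held mice of a single early-life condition, and the effects of nest and condition cannot be told apart. The adult suspensions went through a Percoll gradient before sorting and those of P9 did not, so that age and this step cannot be told apart either. The adults were also injected and came from a separate cohort, which cannot be told apart from age.

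TAM receptors do not bind dying cells directly. Gas6 and Pros1 are secreted proteins whose vitamin K-dependent Gla domain binds phosphatidylserine on apoptotic cells or on other membranes that expose it, and whose other end binds and activates the receptor. In microglia and other macrophages, Mertk is best known for engulfing apoptotic cells in the resting tissue, Axl is induced in inflammation, and signals from both receptors dampen innate immune responses through the type I interferon receptor and SOCS proteins. Tyro3 is known mainly from neurons. Gas6 binds all 3 receptors, whereas Pros1 binds Mertk and Tyro3.

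The genes lie on separate chromosomes except Mertk and Tyro3 (GRCm39). Gas6 (ENSMUSG00000031451) spans chr8:13515371-13544824 on the minus strand and Pros1 (ENSMUSG00000022912) chr16:62674275-62749710 on the plus strand. Axl (ENSMUSG00000002602) spans chr7:25456535-25488329 on the minus strand. Mertk (ENSMUSG00000014361) at chr2:128540729-128645080 and Tyro3 (ENSMUSG00000027298) at chr2:119628214-119648738 are on the plus strand. To show the DNA just before the start of the members that carry the results, 250 bases upstream of the start were taken from RefSeq (GRCm38.p6), where all 5 members were matched. They are given for Gas6 (chr8:13494536-13494785, minus strand), Axl (chr7:25788734-25788983, minus strand) and Mertk (chr2:128698665-128698914, plus strand), whose levels separated the control mice of the ages, and for Pros1 (chr16:62854057-62854306, plus strand), the member with the highest level. Capitals mark matches to 3 motifs that were searched on both strands.
Gas6: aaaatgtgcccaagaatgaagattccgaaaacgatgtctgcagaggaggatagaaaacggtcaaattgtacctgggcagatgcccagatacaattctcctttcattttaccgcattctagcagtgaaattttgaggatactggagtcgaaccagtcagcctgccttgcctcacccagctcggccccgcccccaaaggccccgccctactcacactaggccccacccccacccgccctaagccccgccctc
Axl: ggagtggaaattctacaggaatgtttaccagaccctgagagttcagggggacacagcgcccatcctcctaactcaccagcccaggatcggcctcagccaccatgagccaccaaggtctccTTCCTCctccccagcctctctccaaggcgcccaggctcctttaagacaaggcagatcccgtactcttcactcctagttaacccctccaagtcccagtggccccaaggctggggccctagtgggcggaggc
Mertk: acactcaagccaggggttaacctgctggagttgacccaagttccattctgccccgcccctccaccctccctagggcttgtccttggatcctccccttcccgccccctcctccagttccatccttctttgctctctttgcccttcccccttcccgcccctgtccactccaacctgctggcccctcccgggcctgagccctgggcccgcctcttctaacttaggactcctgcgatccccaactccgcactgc
Pros1: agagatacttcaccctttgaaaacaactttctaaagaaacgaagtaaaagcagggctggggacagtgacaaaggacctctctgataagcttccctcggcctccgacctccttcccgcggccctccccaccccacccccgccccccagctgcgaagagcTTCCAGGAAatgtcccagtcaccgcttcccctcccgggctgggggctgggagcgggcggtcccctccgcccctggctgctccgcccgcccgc

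The motifs were GAGGAA, the core of sites for ETS factors such as the macrophage factor PU.1, TGCTGA, a core of sites for MAF factors, and TTCNNNGAA, the site of STAT factors. GAGGAA was found in 1 of the windows, that of Axl, from 130 to 125 bases before the start. It lay on the strand opposite to the gene, and 23.3% of all 32851 RefSeq windows of this length held it on either strand. TTCNNNGAA was found in that of Pros1, from 92 to 84 bases before the start, against 7.02% of all windows. TGCTGA was in none of the 5 windows and in 16.1% of all. The windows of Gas6, Mertk and Tyro3 held no match to these letters. The G and C content was 54.8% for Gas6, 60% for Axl, 63.6% for Mertk and 64.4% for Pros1, with a median of 52.4% over all windows.

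Total counts ran from 5152838 to 42231258 over the mice. Of the 10 microglia markers, such as P2ry12 and Tmem119, none was at 0, and their summed level was between 39286 and 91084 CPM. Monocyte and neutrophil markers summed to at most 15.4 CPM, with Ly6g and Retnlg at 0 in every mouse. Fewer genes were detected in 3 mice than in the others: 12854 in the CTR-PBS mouse of nest 1, and 15731 and 12482 in mice 2 and 3 of the P9-ELS nest 19. Several values of these mice that set the range of a group are named below, and each comparison was repeated without these mice. No pair of mice of a group differed by as little as sampling noise. In sorted cells measured in bulk, fewer cells of a type and less RNA per cell cannot be told apart.

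Pros1 and Gas6, the ligands, were the members with the highest levels at P9, and Pros1 and Mertk at P200. Per kilobase of exon, Pros1 had a mean level of 172 CPM in P9-CTR, which was 217 in CTR-PBS, and it was above Mertk in every mouse. Gas6 stood at 116 CPM per kilobase in P9-CTR and at 14.3 in CTR-PBS. In P9 mice the Gas6 level per kilobase was above that of Mertk in 12 of 12 CTR and 13 of 13 ELS mice, and at P200 it was below it in every mouse of the 4 groups. Pros1 was above Gas6 in all P200 mice, by a median of 14.4-fold in CTR-PBS and 6.25-fold in ELS-PBS, and in 23 of 25 P9 mice. The level of Mertk per kilobase was above that of Axl in every mouse with an Axl count, by a median of 9.06-fold in P9-CTR and 151-fold in CTR-PBS. The lengths join all annotated exons of a gene (9180 bases for Axl and 4808 for Mertk), and the folds between genes depend on them. Tyro3 was close to the detection limit throughout.

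**Figure D1:**
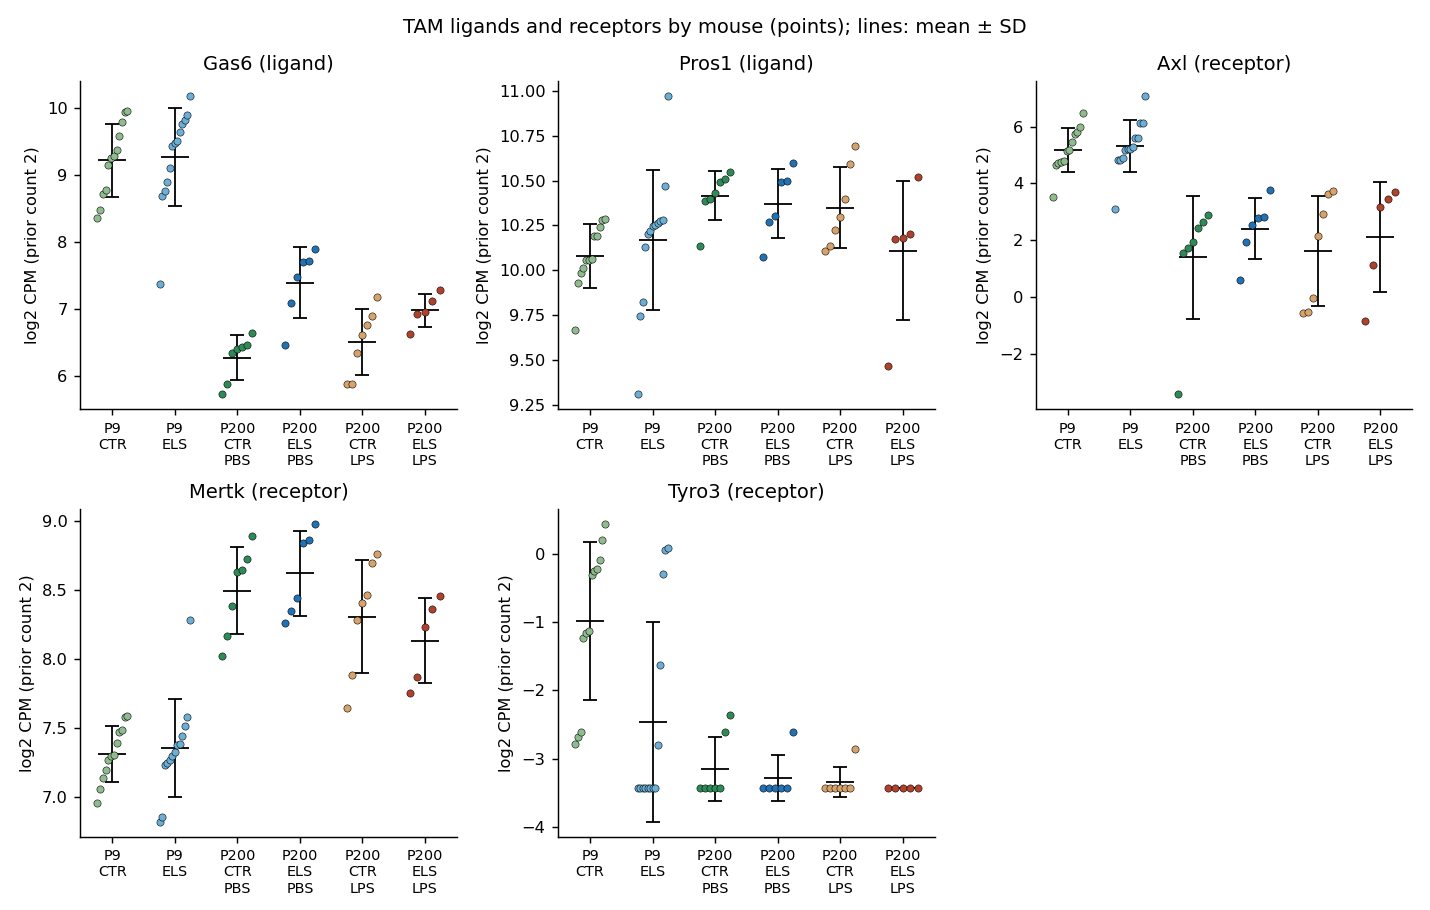
Log2 CPM (prior count 2) of the 5 members by group, with 1 point per mouse and lines at the mean ± SD. Gas6 and Axl were high at P9, Mertk was high at P200, Pros1 was near 10 in all groups and Tyro3 was at the floor in most P200 mice.

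Between P9 and P200, the largest differences of the study in these genes were seen, and they went in opposite directions for the receptors. Of Gas6, Pros1, Axl and Mertk, 4 of 4 passed the test between P200-PBS and P9 in CTR mice (edgeR quasi-likelihood test, adjusted p under 0.05), 2 lower and 2 higher at P200. In ELS mice 3 of 4 passed, 2 lower and 1 higher. Tyro3 is left out of these counts, because it entered the test only through the P9 mice. Of all 16696 genes tested, 44.1% passed in CTR (17.4% higher and 26.6% lower at P200) and 42.2% in ELS (2863 genes higher and 4182 lower), so that many genes of these cells differed between the ages.

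Gas6, the ligand of all TAM receptors, fell 8.08-fold in CTR mice. In P9-CTR it was between 330 and 995 CPM with a median of 619, and in CTR-PBS between 52.97 and 100.2 CPM with a median of 84.4. Every P9-CTR mouse was above every CTR-PBS mouse. The log2 fold change was -3.01 (SE 0.27, adjusted p = 3.9e-13). In P9-ELS mice it was between 167 and 1166 CPM with a median of 715, and in the ELS-PBS mice between 88.6 and 238 CPM with a median of 193. The log2 fold change was -1.95 (SE 0.27, adjusted p = 6.13e-08). The ELS groups overlapped through mouse 2 of the P9-ELS nest 19, at 167 CPM, which was among the mice with few detected genes. The highest P9-ELS value, 1166 CPM, came from mouse 3 of that nest, which also had few detected genes. Without these mice the lowest P9-ELS mouse was at 412 CPM, above all ELS-PBS mice, and the highest at 960 CPM.

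The fall of Gas6 with age was 1.07 smaller on the log2 scale in ELS than in CTR mice (SE 0.34, 95% confidence interval 0.38 to 1.75). The unadjusted p was 0.00293, and the difference did not pass adjustment over all genes (adjusted p = 0.267). Of the 16696 genes, 0.0299% passed this test, and none of Gas6, Pros1, Axl and Mertk did.

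Axl, the receptor that macrophages raise in inflammation, fell with age as well. It was between 11.3 and 88.3 CPM (median 35.7) in P9-CTR and between 0 and 7.32 CPM (median 3.69) in CTR-PBS, with no overlap. The log2 fold change was -3.32 (SE 0.62, adjusted p = 1.62e-05), a 9.99-fold decrease. In ELS it went from 8.46 to 135 CPM (median 37.0) at P9 to between 1.41 and 13.6 CPM (median 6.19) in ELS-PBS (log2 fold change -2.89, SE 0.63, adjusted p = 0.000212). Here mouse 2 of nest 19, at 8.46 CPM, was again the mouse that overlapped with P200, and without the mice with few detected genes the lowest P9-ELS mouse was at 27.9 CPM.

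Mertk, the receptor of resting phagocytes, rose with age. Its range was 124 to 192 CPM (median 157) in P9-CTR and 259 to 474 CPM (median 395) in CTR-PBS, and the groups did not overlap. This was a 2.30-fold increase (SE 0.15 on the log2 scale, adjusted p = 2.37e-09). ELS mice went from between 113 and 311 CPM (median 160) to between 306 and 505 CPM (median 402), with a log2 fold change of 1.25 (SE 0.15, adjusted p = 1.38e-09). The lowest P9-ELS value, 113 CPM, came from mouse 2 of nest 19, among the mice with few detected genes. A single P9-ELS mouse, from nest 9 and at 311 CPM, was above the lowest ELS-PBS mouse, and it also had the highest Axl level of all mice. The difference of the age change between ELS and CTR was 0.05 for Mertk (95% confidence interval -0.38 to 0.48) and 0.43 for Axl (-1.096 to 1.95).

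Pros1, which also circulates as an anticoagulant, moved little. It was between 814 and 1249 CPM (median 1067) in P9-CTR and between 1125 and 1497 CPM (median 1379) in CTR-PBS. The groups overlapped, and the log2 fold change of 0.33 (SE 0.13, adjusted p = 0.0308) was below 1. In 3 alternatives this call was lost, with library totals in place of TMM (adjusted p = 0.11), with genes at 0 in at most 2 mice (0.069) and with counts summed per nest (0.0849). It was also lost without the CTR-PBS mouse of nest 8, that of nest 15 or mouse 1 of nest 18 (adjusted p between 0.0532 and 0.0611). In ELS mice Pros1 was between 636 and 2007 CPM (median 1217) at P9 and between 1080 and 1552 CPM (median 1350) at P200, a log2 fold change of 0.17 (95% confidence interval -0.10 to 0.43, adjusted p = 0.327). Both ends of the P9-ELS range came from the mice with few detected genes, mouse 3 of nest 19 at 636 CPM and mouse 2 at 2007 CPM.

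Tyro3, the third receptor, had counts in 12 of 12 P9-CTR mice but never more than 30, and its level of 0.554 ± 0.407 CPM (SD, n = 12) was low. In P9-ELS it had a count in 5 of 13 mice, up to 33. At P200 counts were found in 2 of 7 CTR-PBS, 1 of 6 ELS-PBS, 1 of 7 CTR-LPS and 0 of 5 ELS-LPS mice, with at most 3 in any mouse. As it passed the filter only through P9 mice, these levels are a description, and no test of age is given. Its log2 fold change between P9-ELS and P9-CTR, -1.24 (SE 0.80), is a description as well. The filter was passed through 3 P9-CTR mice and 1 P9-ELS mouse, so no test of it is read. A difference between the adult groups in Tyro3 was not detectable at this depth, and its folds are left out.

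The ratio of Axl to Mertk was lower at P200 than at P9, with Axl below Mertk at both ages. As log2 CPM of Axl minus log2 CPM of Mertk within a mouse, it was -2.13 ± 0.82 (SD, n = 12) in P9-CTR and -7.10 ± 2.13 (n = 7) in CTR-PBS. The difference was -4.97 (exact permutation test, two-sided p = 3.97e-05, adjusted p = 0.000258 over 7 comparisons). In ELS it went from -2.04 ± 0.70 (n = 13) to -6.22 ± 0.84 (n = 6), a difference of -4.18 (exact permutation test, p = 7.37e-05, adjusted p = 0.000258). Each p is the smallest that the exact test allows with these groups, and all P9 mice were above all PBS mice of the same condition. The ages were compared for Axl and for Mertk in these same mice above, so that the test of their ratio is not independent evidence. The remaining 5 comparisons, of early-life condition and of LPS, had differences between 0.09 and 0.88 and an adjusted permutation p of 0.848 each. The highest, between ELS-PBS and CTR-PBS, was 0.09 without the CTR-PBS mouse of nest 1, which had no Axl count.

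**Figure D2:**
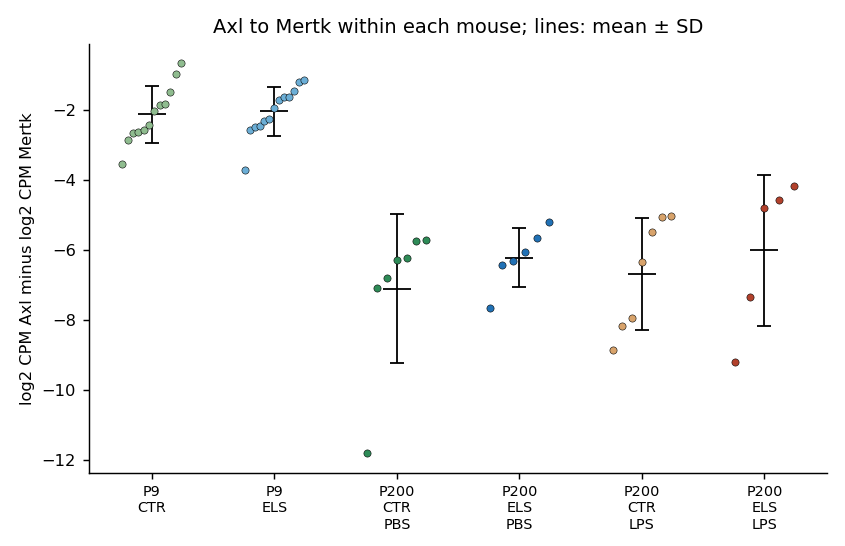
Log2 CPM of Axl minus log2 CPM of Mertk in each mouse by group, with lines at the mean ± SD. P9 mice lie between -3.72 and -0.67, and P200 mice lie at -4.17 or lower, with the CTR-PBS mouse of nest 1, which had no Axl count, lowest at -11.8.

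Markers of border-associated macrophages, which lie in the meninges and around vessels and share the CD11b of microglia, moved with age in the same direction as Gas6 and Axl. Their 10 genes summed to between 574 and 939 CPM in P9-CTR and between 2.84 and 12.9 CPM in CTR-PBS, and 10 of 10 were lower at P200 in CTR and 7 of 10 in ELS. Most of the P9 sum was Mrc1, at 711 ± 128 CPM (SD, n = 12) in P9-CTR. The other 9 markers summed to a median of 38.0 CPM in P9-CTR and 2.46 CPM in CTR-PBS, and the defining markers Cd163 and Lyve1 were at 1.48 and 2.93 CPM in P9-CTR. Between P9-ELS and P9-CTR the sums overlapped, as did those of the adult groups. Neuronal markers also had higher sums at P9, with a median of 122 CPM in P9-CTR and 6.95 CPM in CTR-PBS, and 9 of 9 were lower at P200 in CTR. Of the tested markers of oligodendrocyte precursors 3 of 4, and of those of pericytes and smooth muscle 2 of 3, were lower as well. Of 8 astrocyte markers 7 were lower, such as Gja1 (-5.63) and Gfap (-4.97), and 1, Slc1a3, was higher (1.57). The astrocyte sum was not lower at P200, with a median of 299 CPM in P9-CTR and 337 CPM in CTR-PBS. Nor were the sums of endothelial (36.4 and 52.6 CPM) and oligodendrocyte markers (141 and 153 CPM). Of the 6 tested endothelial markers 3 were lower and 1 higher in CTR, and of 6 oligodendrocyte markers 1 was lower and 2 higher. The part of these cells in the age differences of Gas6, Axl and Tyro3 was not tested.

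**Figure D3:**
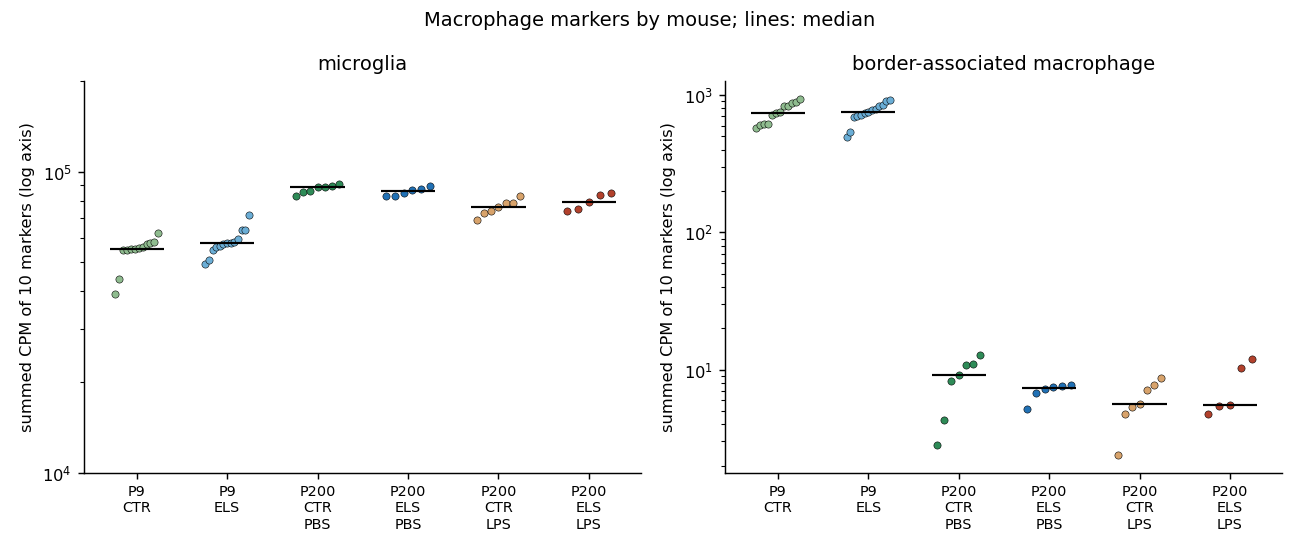
Summed CPM of 10 microglia markers and of 10 markers of border-associated macrophages in each mouse, on log axes, with lines at the median. The macrophage sum was at least 495 CPM in all P9 mice and at most 12.9 CPM in all P200 mice, whereas the microglia sum was at least 39286 CPM.

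At P9, right at the end of the stress period, none of Gas6, Pros1, Axl and Mertk passed the test between ELS and CTR. Of all genes 0% passed the test, against 914 at an unadjusted p under 0.05 and 1 gene with edgeR's likelihood-ratio test. In P9-CTR mice Gas6 averaged 638 ± 232 CPM (SD, n = 12) and in P9-ELS mice 683 ± 269 CPM (n = 13), which gave a log2 fold change of 0.10 (95% confidence interval -0.30 to 0.50). The interval was -0.09 to 0.34 for Pros1, -0.18 to 0.33 for Mertk and -0.67 to 1.08 for Axl. Differences of a doubling in Gas6, Pros1 or Mertk lay outside these intervals, whereas one in Axl did not. The nest means of a group lay farther apart than the means of the conditions. The nest means of Gas6 were between 344 and 916 CPM over the 5 P9-CTR nests and between 564 and 877 CPM over the 4 P9-ELS nests.

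In adult mice at rest, Gas6 was the member that stood apart between the early-life conditions. The 7 CTR-PBS mice were between 52.97 and 100.2 CPM with a median of 84.4, and the 6 ELS-PBS mice were at 88.6, 136, 179, 208, 212 and 238 CPM. Of these, 5 were above every CTR-PBS mouse, and the sixth, mouse 2 of nest 17 at 88.6 CPM, lay within the control range. Gas6 was 2.24-fold higher in ELS-PBS (log2 fold change 1.16, SE 0.28, 95% confidence interval 0.61 to 1.72), and the ELS mouse was higher in 97.6% of mouse pairs. The unadjusted p was 0.000112, the rank 33 of 16696, and the adjusted p was 0.0564, just above the threshold. So none of Gas6, Pros1, Axl and Mertk passed in a comparison in which 0.168% of all genes did.

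This value was near the threshold, and the choice of test moved it across. EdgeR's likelihood-ratio test gave an adjusted p of 0.00885, DESeq2 one of 0.0128 and counts summed per nest one of 0.0464, whereas it was 0.156 when only the PBS groups were fitted and 0.193 in limma-voom with the nest as random effect. The log2 fold change stayed between 1.14 and 1.32 over these settings. It was 1.103 with an adjusted p of 0.0386 without the mice with few detected genes. Leaving out each of the 50 mice in turn gave an adjusted p between 0.0186 and 0.13, under 0.05 in 8 of 50 cases. The study singled Gas6 out on this contrast in these mice, so that its test is not independent evidence of its direction. By nest, the means were between 52.97 and 100.2 CPM over the 5 CTR-PBS nests and between 112 and 238 CPM over the 5 ELS-PBS nests, and nest 17, with both of the lowest ELS-PBS mice, was the lowest.

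The other members showed no difference of this size between ELS-PBS and CTR-PBS. Pros1 was at 1335 ± 173 CPM (SD, n = 6) in ELS-PBS against 1370 ± 123 CPM (n = 7), and Mertk was at 401 ± 84.5 against 367 ± 77.0 CPM. Their log2 fold changes were -0.04 (95% confidence interval -0.34 to 0.26) and 0.13 (-0.23 to 0.48), and their groups overlapped. The mean level of Axl was 6.33 ± 4.13 CPM in ELS-PBS against 4.07 ± 2.43 CPM, a log2 fold change of 0.64 (-0.61 to 1.89), an interval wide enough to hold a doubling. Axl had no count in the CTR-PBS mouse of nest 1.

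The summed markers of border-associated macrophages overlapped between these groups. The border-associated macrophage markers summed to between 2.84 and 12.9 CPM in CTR-PBS and between 5.16 and 7.77 CPM in ELS-PBS, and 0 of 10 passed the test. In CTR-PBS mice Mrc1 averaged 5.76 ± 2.101 CPM (SD, n = 7) and in ELS-PBS mice 2.57 ± 1.53 CPM (n = 6). The log2 fold changes were above 0 for 5 of the 10 and below 0 for the other 5, with a median of 0.36, from -2.18 to 3.52 in Cbr2 (adjusted p = 0.074), whose mean level was 0.0305 CPM in the CTR-PBS mice against 0.313 CPM. Of 8 astrocyte markers 1 passed, Gfap, which was lower in ELS-PBS (log2 fold change -3.58, adjusted p = 0.0466), at 0.108 ± 0.169 CPM against 1.28 ± 1.195 CPM. The microglia sums overlapped as well. The part of other cells in the Gas6 values was not tested.

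Gas6 shares its 3' end with another gene, and the log2 fold change of that gene had the same sign in each comparison. Tmem255b, which encodes a transmembrane protein, lies on the plus strand at chr8:13485189-13519420, and 154 of the 5500 exonic bases of Gas6 (2.8%) are also exonic in it. The libraries do not mark the strand, so that reads of the genes cannot be told apart there. Tmem255b counts were between 4.75% and 8.12% of the Gas6 counts over the 50 mice, with a median of 6.63%. Its log2 fold change was 1.24 (SE 0.29, adjusted p = 0.051) in ELS-PBS against CTR-PBS and -3.06 (SE 0.28, adjusted p = 8.31e-13) with age in CTR. Of 11052 genes compared, it was the one most like Gas6, with a Pearson r of log2 CPM of 0.993 over the 50 mice and 0.962 over the 25 P200 mice.

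**Figure D4:**
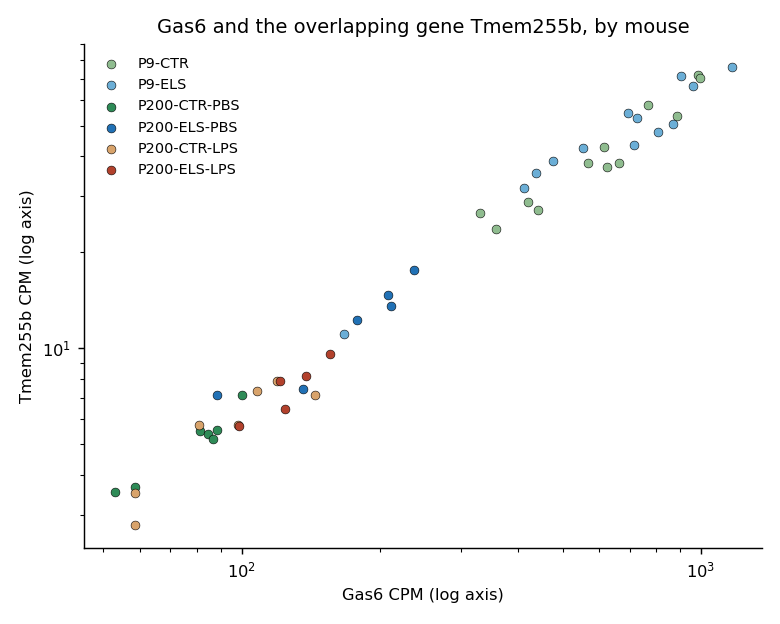
CPM of Gas6 and of Tmem255b, the gene that overlaps its 3' end, in each mouse on log axes, coloured by group. All 50 mice lie along 1 line, on which 4 of the 6 ELS-PBS mice lie above all other adult mice.

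After LPS, which activates innate immunity through Toll-like receptors, none of Gas6, Pros1, Axl and Mertk passed the test in either early-life condition. Of all genes 14.9% did in CTR and 12.3% in ELS. Of the genes called, 1458 of 2493 were higher after LPS in CTR and 1235 of 2059 in ELS. With library totals in place of TMM these were 1156 of 2736 and 843 of 2414. The LPS comparisons share their PBS mice with the comparisons above. The mice were taken at a single time within hours of the injection, and later times were not measured. Axl averaged 5.62 ± 5.50 CPM (SD, n = 7) in CTR-LPS, against 4.07 ± 2.43 CPM without LPS. The 5 ELS-LPS mice were at 0.468, 2.09, 8.90, 10.7 and 12.9 CPM, against a range of 1.41 to 13.6 CPM in ELS-PBS. In both LPS groups the mice spread over a wide range, and the log2 fold changes of Axl were 0.46 (95% confidence interval -0.75 to 1.67) in CTR and 0.13 (-1.23 to 1.49) in ELS.

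Mertk had the lowest p of the members after LPS, in ELS mice. The ELS-LPS mice were at 215, 233, 301, 328 and 351 CPM and the ELS-PBS mice between 306 and 505 CPM, with overlap. The log2 fold change was -0.49 (SE 0.19, unadjusted p = 0.0143, adjusted p = 0.089). With library totals in place of TMM, which shifted the median of all genes by -0.25 in this comparison, it was -0.70 (adjusted p = 0.0114). In CTR mice it was -0.17 (95% confidence interval -0.51 to 0.17), from 367 ± 77.0 CPM to 327 ± 86.0 CPM (SD, n = 7 each). The difference of the LPS change between ELS and CTR was -0.32 for Mertk (SE 0.26, adjusted p = 0.959).

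The ligands overlapped between LPS and PBS too. Gas6 was at 98.8, 121, 124, 138 and 156 CPM in the ELS-LPS mice, against 88.6 to 238 CPM after PBS. Its log2 fold change was -0.47 (95% confidence interval -1.08 to 0.14). In CTR it was between 58.7 and 145 CPM after LPS, a log2 fold change of 0.27 (-0.26 to 0.81). The difference of the LPS change between the conditions was -0.74 (SE 0.40, unadjusted p = 0.0711, adjusted p = 0.88). In this test 0% of all genes passed, against 980 at an unadjusted p under 0.05 and 66 genes with the likelihood-ratio test. Pros1 was at 709, 1155, 1158, 1177 and 1469 CPM in ELS-LPS and at 1319 ± 210 CPM (SD, n = 7) in CTR-LPS, and its log2 fold changes after LPS were -0.24 (-0.57 to 0.09) in ELS and -0.06 (-0.35 to 0.24) in CTR.

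Between ELS-LPS and CTR-LPS none of Gas6, Pros1, Axl and Mertk passed. Of all genes 0% did, against 798 at an unadjusted p under 0.05 and 10 genes with the likelihood-ratio test. Gas6 averaged 128 ± 21.2 CPM (SD, n = 5) in the ELS-LPS mice, against 95.5 ± 31.7 CPM (n = 7). The log2 fold change was 0.42 (SE 0.29, unadjusted p = 0.154, 95% confidence interval -0.16 to 1.00). The ELS mouse was higher in 82.9% of pairs, and the groups overlapped. The intervals of the other members included 0.

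**Figure D5:**
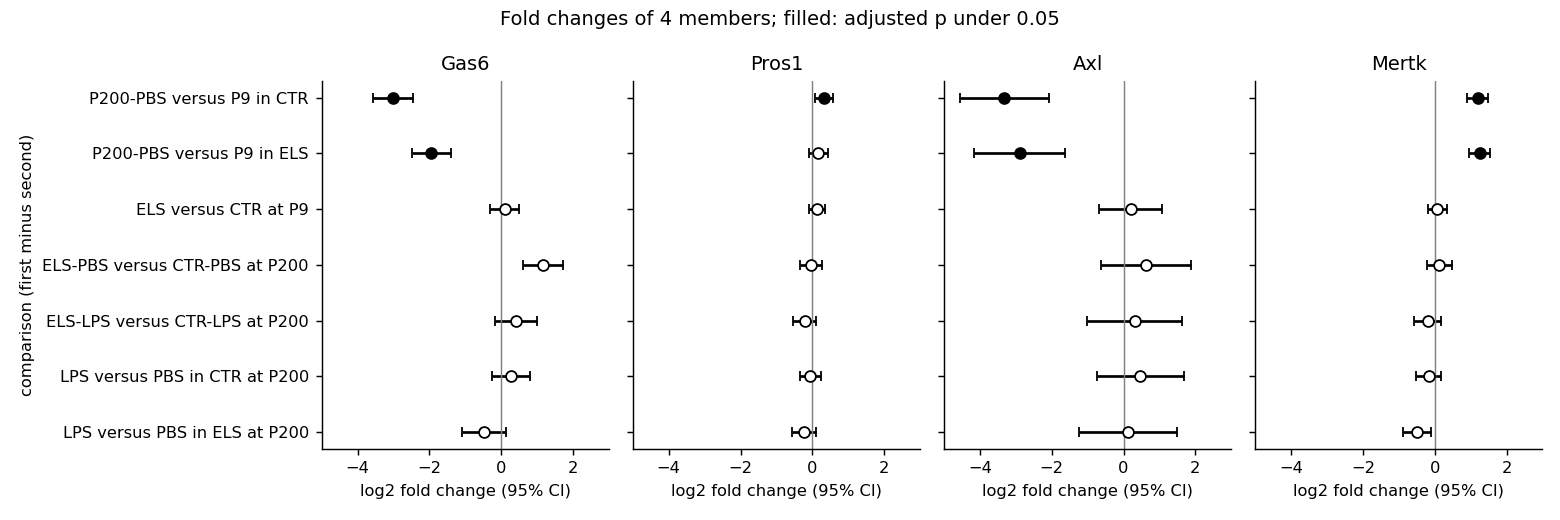
Log2 fold changes with 95% confidence intervals of Gas6, Pros1, Axl and Mertk in 7 comparisons, filled where the adjusted p was under 0.05. The filled points are those of age, and the interval of Gas6 for ELS-PBS against CTR-PBS, 0.61 to 1.72, lies above 0 with an open point.

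In the order of the 6 groups by mean log2 CPM, Gas6 and Axl each had 1 step larger than the SD of the mice, between P9 and P200. The order of Gas6 was P9-ELS, P9-CTR, ELS-PBS, ELS-LPS, CTR-LPS and CTR-PBS. Axl followed the same order, but its step from ELS-PBS to ELS-LPS was 0.28 against an SD of 1.94. Its mean CPM was higher in ELS-LPS than in ELS-PBS (7.00 against 6.33). Mertk ran from ELS-PBS through CTR-PBS, CTR-LPS and ELS-LPS to P9-ELS and P9-CTR, again with 1 such step, between ELS-LPS and P9-ELS. For Pros1 no pair of neighbours differed by more than the larger SD. For Tyro3, near the floor, the 1 step that reached it was between P9-CTR and P9-ELS (1.474 against an SD of 1.466 on the log2 scale).

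Genes that act with the TAM members were read from 8 lists, of which 59 of 67 genes were tested. With age 18 were higher and 12 lower at P200 in CTR, and 23 were higher and 9 lower in ELS (50.8% and 54.2% of those tested, against 44.1% and 42.2% of all genes). The counts of the single lists below stand against 17.4% of all genes higher and 26.6% lower at P200 in CTR, and 2863 genes higher and 4182 (25%) lower of 16696 in ELS, and nothing particular to a list is read from them. In the 3 comparisons of ELS with CTR 0 of 59 passed.

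Vitamin K-dependent γ-carboxylation makes the ligands competent to bind phosphatidylserine. In CTR mice 3 of 5 tested genes of the vitamin K cycle and of γ-carboxylation were higher at P200 and none lower. They were Ggcx, the γ-carboxylase itself (log2 fold change 0.83, SE 0.20), Furin, a protease that processes secreted precursors (0.67, SE 0.16), and Vkorc1, which recycles vitamin K (0.51, SE 0.21). In ELS mice 2 of 5 were higher, Ggcx (1.08, SE 0.21) and Furin (0.71, SE 0.17). After LPS Furin fell in CTR mice (-0.76, SE 0.19, adjusted p = 0.00293).

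Among the 5 tested genes of the innate inhibition below the receptors, 3 rose with age in CTR and 4 in ELS, and none fell. Ifnar2, a chain of the type I interferon receptor, rose by 0.94 (SE 0.11) in CTR. Socs3, an inhibitor of cytokine signalling, was among the strongest responses to LPS in the lists, from 19.32 to 1823 CPM in CTR (log2 fold change 6.55, SE 0.56) and from 25.3 to 1941 CPM in ELS (6.26, SE 0.60). Socs1 rose after LPS in CTR (2.15, SE 0.54).

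Of 8 tested regulators that are known to induce TAM genes, 4 rose with age in CTR and 5 in ELS, and none fell. Nr3c1, the glucocorticoid receptor, rose with age by 1.53 (SE 0.22) in CTR and by 1.17 (SE 0.23) in ELS. Ppard, a lipid-sensing nuclear receptor, and Irf8, which macrophages need for their identity, rose with age in CTR by 1.65 (SE 0.27) and 0.92 (SE 0.14).

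Other receptors and bridges for phosphatidylserine moved in both directions with age, with 4 of 12 tested genes higher and 5 lower in CTR, and 5 higher and 3 lower in ELS. Mfge8, a further bridging protein, fell by 1.37 on the log2 scale in CTR and by 0.88 in ELS, whereas Itgav, a chain of its integrin receptor, rose by 1.08 and 1.19. Cd300lf, an inhibitory receptor for phosphatidylserine, rose from 1.64 to 126 CPM after LPS in CTR (6.28, SE 0.52) and from 1.78 to 102 CPM in ELS (5.84, SE 0.55). Trem2, a lipid receptor of microglia, rose after LPS in ELS from 2001 to 2735 CPM (0.45, SE 0.12), and Stab1, a scavenger receptor, fell there (-0.76, SE 0.23).

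Of the 5 genes of receptor shedding, by which the extracellular parts of Axl and Mertk are released, 1 was lower with age in CTR and 1 was higher and 1 lower in ELS. Rhbdf2, which brings the shedding protease ADAM17 to the surface, rose after LPS from 6.98 to 39.9 CPM in CTR (2.51, SE 0.58, adjusted p = 0.00129) and from 9.28 to 42.0 CPM in ELS (2.17, SE 0.64, adjusted p = 0.0154). Of the 15 signalling genes below the receptors, 4 were higher and 3 lower with age in CTR, and 5 higher and 3 lower in ELS. These included Pik3r1, a regulatory subunit of PI3 kinase (0.84, SE 0.13), Elmo1 and Rac1 of the engulfment machinery (0.70, SE 0.15, and 0.57, SE 0.09) and Dock1, their partner, which fell (-0.61, SE 0.20). The 7 genes of phosphatidylserine exposure had 2 lower with age in CTR, and of 2 tested other ligands 1 was lower in CTR and 0 in ELS.

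Apart from Tmem255b, the genes whose level over the 50 mice was most like a member were Igfbp4 and Arsb for Gas6 (r = 0.947 and 0.930), Pacsin1 for Axl (0.900), Eef2k for Mertk (0.916) and Tbck for Pros1 (0.864). Over all mice these values mainly follow age. Over the 25 P200 mice they were Map2k2 for Gas6 (0.929), Rap1gap2 for Axl (0.828), Mbtps1 for Mertk (0.892) and Ado for Pros1 (0.938). Between members, r over the 25 P200 mice was 0.41 for Gas6 and Axl, 0.22 for Gas6 and Mertk and 0.31 for Axl and Mertk. Over all 50 mice these pairs had an r of 0.82, -0.68 and -0.55. Pros1 had an r of -0.17 with Gas6, -0.25 with Axl and 0.04 with Mertk over the P200 mice. The 25 mice differ in condition, treatment and depth.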

How the data were processed

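Each of the 50 mice gave 1 library of poly-A RNA of sorted microglia. The authors trimmed the reads (cutadapt 2.10 per the submitters' processing notes), aligned them with STAR to GRCm39 and counted unique exonic reads per gene with HTSeq 0.11.0. They deposited raw counts per gene that were not normalized. The annotation release and the strand setting of the counting are not given in the sources used here.

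CPM and log2 CPM (prior count 2) were computed from the counts with TMM factors (edgeR 4.0.16, R 4.3.3). A gene was tested if more than 2 mice reached 1 CPM of the library total, without TMM (16696 of 53700 genes). The 6 group means were fitted to all mice in 1 model, and their contrasts were tested by edgeR's quasi-likelihood test, with Benjamini-Hochberg adjustment over all genes. A member was called at an adjusted p under 0.05. SEs were derived from the fold change and its F statistic. Ratios were compared by two-sided permutation tests (Python 3.11.15, scipy 1.17.1), exact where a group had under 10 mice and otherwise with resampling. Gene positions and exon lengths came from a GENCODE annotation of GRCm39, whose release may differ from that of the authors.

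Groups follow the labels, and the main p-values measure the spread between mice, with the mice of a nest taken as independent. In edgeR this spread was estimated over all groups together. The total counts of 5152838 to 42231258 per mouse leave counts near 0 for Tyro3 and for Axl at P200, whose precision is low. The members and gene lists were chosen with earlier results of these data known. The genes named are the members, from each list and comparison at most 4 genes with an adjusted p under 0.05, a mean log2 CPM of at least 1 and the largest fold changes, up to 3 genes most like each member, and markers that moved with one. Some genes that this rule names are not reported here. Alternatives were other tests (likelihood-ratio, robust, DESeq2 1.42.0, and limma 3.58.1 with voom and a random nest effect), other scalings (DESeq2 size factors in edgeR, library totals), 2 other filters, other samples (the groups compared alone, sums per nest, without single mice, without the 3 mice with under 16000 detected genes), a replicate block and a further rule of an absolute log2 fold change above 1. For the ratio, a prior count of 0.5 and 1 mean per nest were also used.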

Additional observations from a re-analysis of the deposited data

Results flagged for a closer look

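Pros1 and the ratio of Axl to Mertk in CTR-PBS mice were flagged because 1 mouse, that of nest 1, lay far from the others in both. Its Pros1 level was 1125 CPM, whereas the other 6 mice were between 1339 and 1497 CPM, and the gap was 0.576 of the group's range. Its log2 ratio was -11.81, and the gap was 0.775 of the range, against a critical share of 0.568 for 7 mice. The same mouse had 12854 detected genes and no Axl count, and the part of this in the low values was not tested. Without it the age difference of the ratio in CTR was -4.188, against -4.97. Of the 20 sets of values examined, from which Tyro3 was left out for its counts near 0, these 2 were flagged, and chance flags about 1 in 20. Critical shares were set only for groups of 5, 6 and 7 mice, the sizes at P200, and none for the larger P9 groups.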

How the results depend on the processing

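The directions and calls of Gas6, Axl and Mertk with age were the same under all alternatives that tested them. Between ELS-PBS and CTR-PBS 1 member, Gas6, was called with the likelihood-ratio test (1.164), with counts summed per nest (1.321), with DESeq2 (1.15) and without the 3 mice with few detected genes (1.103), in place of 0. Leaving out each mouse in turn gave a log2 fold change of Gas6 between 1.061 and 1.304, an adjusted p between 0.0186 and 0.13, and 0 or 1 member called. It was called without the CTR-PBS mouse of nest 15, mouse 2 of the ELS-PBS nest 17 or 6 mice of other groups, which enter the shared estimate of the spread (mice 2 and 3 of the P9-ELS nest 19, mice 1 and 2 of the P9-CTR nest 58, mouse 2 of the CTR-LPS nest 1 and the ELS-LPS mouse of nest 20). Of all genes, 28 were called there, against 215 with the likelihood-ratio test, 178 with DESeq2, 6 with DESeq2 size factors, 2 with no filter, 3 with the stricter filter, 7 summed per nest, 0 in limma-voom or the PBS groups alone, and 1 to 83 without single mice. The difference of the age change had 5, against 29, 20, 5, 4, 1, 0 and 0, and 0 to 6 (0 without the 3 mice). With LPS in ELS 2059 were called, and 3532 without the 3 mice. Of Gas6, Pros1, Axl and Mertk with age in CTR, Pros1 lost its call under the stricter filter (a 0 allowed in only 2 mice, adjusted p = 0.069). That filter leaves Tyro3 out. With LPS in ELS, 2 members passed with library totals, Mertk and Pros1 (-0.44, adjusted p = 0.0382). Library totals shifted the median of all genes to -0.25 there, -0.12 with LPS in CTR and -0.20 with age in CTR.

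Whether the numbers of the nests pair the PBS and LPS mice cannot be decided from so few pairs. The mean correlation of the deviations of PBS and LPS mice of 1 nest was 0.021 in CTR and 0.028 in ELS. It was -0.004 and -0.007 for pairs of different nests. Of the pairs of 1 nest, 1 of 9 and 0 of 6 were over 0.1. The consensus correlation within nests in limma-voom was 0.0778. With the replicate block of nests, 1 member was called with LPS in ELS, Mertk (-0.4864, adjusted p = 0.0458), Gas6 was at -0.5171 (adjusted p = 0.273) and Axl at -0.3488. In the ratio of Axl to Mertk the block gave within-nest differences of 0.80 (exact permutation p = 0.4375, 5 nests) in CTR and 0.24 (0.8125) in ELS.

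With 1 mean per nest the age differences of the Axl to Mertk ratio were -5.301 in CTR and -4.226 in ELS, each with an adjusted exact permutation p of 0.0556, which is the smallest these nests allow after adjustment. Values near 0 that passed no test changed sign. The ratio with LPS in CTR was -0.3777 without the mice with few detected genes. Axl with LPS in ELS was -0.1033 with library totals and -0.5365 in limma-voom, and Pros1 with LPS in CTR was 0.005849 with counts summed per nest. The difference of the age change in Mertk was -0.02384 without the mice with few detected genes. Leaving out single mice, the range was -0.04145 to 0.2273 for the ratio between ELS and CTR at P9, -0.3777 to 0.7674 with LPS in CTR and -0.2528 to 1.002 with LPS in ELS. It was -0.03739 to 0.3673 for Axl and -0.03588 to 0.1156 for Mertk between ELS and CTR at P9, -0.08484 to 0.01689 for Pros1 between ELS-PBS and CTR-PBS, -0.03426 to 0.6727 for Axl between ELS-LPS and CTR-LPS, -0.2094 to 0.5125 for Axl with LPS in ELS, -0.02748 to 0.1628 for Mertk and -1.176 to 1.549 for Tyro3 in the difference of the age change, and -0.6704 to 0.0514 for Axl in the difference of the LPS change. The causes of these shifts were not tested. Of the values of genes of the lists, 610 kept their side of the threshold and 35 lost the call. Counts near 0 limit Tyro3, and Axl at P200.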
